A study of Mus musculus with 2 samples.

Results

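Mouse hippocampus was examined for 7 microRNA (miRNA) genes that lie within genes of neurons, synapses or their signalling. They were chosen by host gene, with earlier results of these data known. The genes are Mir153 in Ptprn2, Mir488 in Astn1, Mir346 in Grid1, Mir598 in Xkr6, Mir342 in Evl, Mir326 in Arrb1 and Mir149 in Gpc1. These are 7 of the 2202 miRNA genes counted. Small RNA below 30 bases was sequenced from female B6CASTF1/J mice aged 2 months, F1 hybrids of a laboratory strain and a castaneus-derived strain, with no treatment named. The series holds 1 group of 2 libraries, which the labels number as biological replicates 1 and 2 and whose tissues have records of their own but the same donor record. The layer of hippocampus that the tissue label refers to is not named. Apart from the word biological, nothing states whether different animals were used, so the spread between the libraries cannot be assigned to animals or to technique.

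An intronic miRNA is usually cut from the same primary transcript as its host mRNA. The hairpin is released in the nucleus by Drosha, trimmed to a short duplex by Dicer, and 1 arm is loaded into an Argonaute protein, where bases 2 to 8, the seed, direct pairing with target mRNAs. The level of a mature miRNA therefore depends on transcription of the host locus, on processing of the hairpin and on the stability of the loaded arm. Host mRNA was not analysed here.

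The host genes differ in function. Ptprn2 encodes phogrin, a phosphatase-like membrane protein of dense-core vesicles in neurons and endocrine cells. Grid1 encodes the delta-type glutamate receptor GluD1, a synaptic organiser, and Astn1 encodes astrotactin 1, an adhesion protein of migrating neurons. Evl encodes an Ena/VASP protein that promotes actin filament growth, Arrb1 encodes beta-arrestin 1, which uncouples activated G protein-coupled receptors, and Gpc1 encodes glypican 1, a heparan sulfate proteoglycan of the cell surface. Xkr6 encodes a membrane protein of the XK-related family.

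RefSeq sequences on GRCm38.p6 matched 6 of the 7 genes, namely Mir153, Mir488, Mir346, Mir342, Mir326 and Mir149. The mature arms are shown because the counts are per gene and do not separate them, so each level below is that of both arms together. Each is written 5′ to 3′ with the seed in capitals.
miR-153-5p: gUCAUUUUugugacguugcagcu
miR-153-3p: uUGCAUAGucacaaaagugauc
miR-488-5p: cCCAGAUAauagcacucucaa
miR-488-3p: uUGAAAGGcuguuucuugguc
miR-346-5p: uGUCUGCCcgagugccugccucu
miR-346-3p: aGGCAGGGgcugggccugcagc
miR-342-5p: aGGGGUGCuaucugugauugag
miR-342-3p: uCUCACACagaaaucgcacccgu
miR-326-5p: gGGGGCAGggccuuugugaaggcg
miR-326-3p: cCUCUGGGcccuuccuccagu
miR-149-5p: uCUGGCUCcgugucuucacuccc
miR-149-3p: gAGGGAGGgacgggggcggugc
The 12 arms carried 12 distinct seeds, so no 2 of these 6 genes share a seed. None of the 12 arms had an exact match on either strand of an annotated transcript outside its own gene and host. The longest stretch that any of the 7 genes shared with another miRNA gene was 15 bases, for Mir149, which is shorter than a mature miRNA. The tables assign no gene to a read with several mapping positions, which lowers the counts of duplicated miRNAs.

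The hairpins of Mir149 and Mir153, the members furthest apart between the libraries, are shown whole, with both arms in capitals. Mir149 lies at chr1:92850378-92850443 and Mir153 at chr12:117250817-117250885 of mm10, both on the plus strand.
Mir149 hairpin: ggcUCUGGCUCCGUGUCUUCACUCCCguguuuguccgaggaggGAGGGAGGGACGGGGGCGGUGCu
Mir153 hairpin: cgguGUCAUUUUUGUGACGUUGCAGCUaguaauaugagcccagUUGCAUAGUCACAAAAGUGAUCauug
The Mir149 hairpin is 66 bases long with a G and C content of 68.2%, and its 3p arm reaches 81.8%. The Mir153 hairpin is 69 bases long with 42.0%. Over the 354 tested miRNA genes with a RefSeq hairpin the median was 51.9%, with a middle range of 45.4% to 58.2%. Mir346 (65.3%) and Mir326 (60.0%) lay above that range, Mir342 (51.5%) within it and Mir488 (42.2%) below it with Mir153.

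All 7 hairpins lie on the plus strand, as do 1177 of the 2202 annotated genes, and none overlaps an exon of any transcript of its host in GENCODE M21. Mir149, Mir326 and Mir598 lie in intron 1 of their hosts. For Mir149 (ENSMUSG00000065470.1) this is intron 1 of 8 of Gpc1, 18.7 kb from the start of a gene of 29.1 kb. Mir326 (ENSMUSG00000065571.1, chr7:99552269-99552363) lies 16.8 kb into Arrb1, in intron 1 of 14. Mir598 (ENSMUSG00000076049.4, chr14:63727189-63727267) lies in intron 1 of 2 of Xkr6, an intron of 190922 bases.

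Mir346 (ENSMUSG00000065481.1, chr14:34894609-34894706) lies in intron 2 of 15 of Grid1, an intron of 123044 bases, and 51047 bases from the nearest host exon. Mir342 (ENSMUSG00000065436.1, chr12:108658620-108658718) lies in intron 3 of 13 of Evl. The introns that hold Mir488 and Mir153 are the shortest of the 7, at 4376 and 4902 bases. Mir488 (ENSMUSG00000070103.2, chr1:158505625-158505733) lies in intron 5 of 22 of Astn1, with 156 bases to the nearest host exon, the shortest such distance of the 7. Mir153 (ENSMUSG00000065538.1) lies in intron 19 of 22 of Ptprn2, 765 kb from the start of a gene of 791 kb. These 2 hairpins also lie opposite annotated antisense genes, Gm37679 at Mir488 and Gm5441 at Mir153. No member had an antisense count in either library, and the column without regard to strand held the same counts as the sense column.

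**Figure D1:**
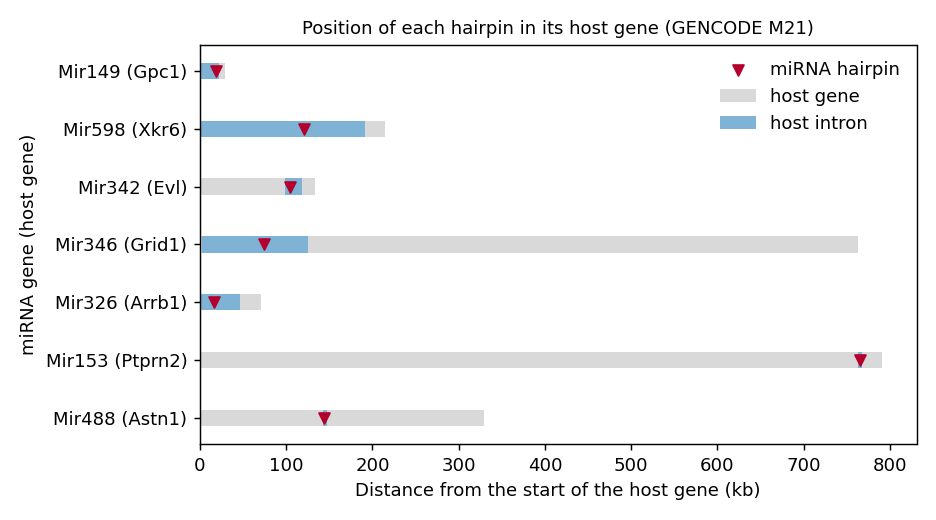
Position of each hairpin (triangle) along its host gene (grey bar), in kb from the start of the host, with the intron that holds it in blue. Mir153 lies 765 kb into Ptprn2, whereas Mir326 and Mir149 lie 16.8 and 18.7 kb from the start of Arrb1 and Gpc1.

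The libraries held 4517648 (replicate 1) and 5979247 (replicate 2) sense counts on miRNA genes, and levels are given per 1000000 of these (CPM). A count of 0 allows up to 0.664 and 0.502 CPM. Intervals and these limits treat each read as a separate draw and so reflect counting error alone. Reads copied by PCR do not each stand for a molecule, so the intervals may be too narrow. Markers of the tissue were read from fixed lists. All 7 neuronal miRNA genes of the list, among them Mir132 and Mir137, were detected, at 43451 and 48505 CPM in sum, and astrocyte, oligodendrocyte, microglial, vascular and choroid plexus lists differed between the libraries by 1.07 to 1.35 times in sum. The list for regions outside hippocampus, 13 genes of the miR-200, miR-183, miR-10 and miR-196 families, differed 2.94-fold, with 668.3 CPM in replicate 1 and 227.3 CPM in replicate 2.

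Levels followed no single value across the host genes. The 7 genes together held 1.63% of the counts in replicate 1 and 1.22% in replicate 2, a mean of 1.42% ± 0.295 (SD, n = 2). Mir149 of Gpc1 alone made up 67.0% of this sum in replicate 1 and 46.7% in replicate 2. From the most to the least abundant member the mean levels spanned 44.5-fold. The members' median of 757.2 CPM stood beside 85.3 CPM over all 420 genes that reached a minimum of 10 counts in each library. All 7 passed that minimum. The members' median also stood beside 30.4 CPM over the 164 of 717 other miRNA genes within introns of protein-coding genes that passed that minimum. All 7 members exceeded this median of 30.4 CPM. For the 20 tested genes of the further neuronal hosts described below, the median was higher, at 147.9 CPM. The genes compared with the members include duplicated miRNAs, whose counts are lowered as described above. How far this changes the medians was not tested. The members were chosen with earlier results of these data known, so the differences between these medians were not tested.

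Among the hosts of the cell surface, the cytoskeleton and receptor signalling, Mir149 was highest, followed by Mir342 and Mir326. Mir149 stood at 10944 CPM in replicate 1 (49442 counts, 95% Wilson interval 10849 to 11041) and 5680 CPM in replicate 2 (33963 counts, 5620 to 5741), a mean of 8312 ± 3722 CPM. It ranked 18 of all miRNA genes in replicate 1 and 36 in replicate 2. Both values lie above those of every other member in either library. Mir342 of Evl, the actin regulator, stood at 1628 and 2488 CPM (7355 and 14879 counts), a mean of 2058 ± 608 CPM. Mir326 of Arrb1 was lower, at 383 and 471 CPM (1729 and 2816 counts), a mean of 426.8 ± 62.4 CPM, and ranked 139 and 131.

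Among the membrane and adhesion hosts, Mir598 of Xkr6 stood at 1719 and 2450 CPM (7768 and 14648 counts), a mean of 2085 ± 516 CPM. Mir598 and Mir342 were thus both lower in replicate 1. Mir346 of the glutamate receptor gene Grid1 stood at 828 and 687 CPM (3740 and 4105 counts), with a mean of 757.2 ± 99.9 CPM and the smallest SD relative to its mean of the 7, 13.2%. Mir488 of Astn1 was the least abundant by its mean, at 160 and 213 CPM (723 and 1275 counts), a mean of 186.6 ± 37.6 CPM. Even so it ranked 177 and 166 of 2202 genes.

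Mir153 of the dense-core vesicle gene Ptprn2 had the widest spread. It stood at 668 CPM in replicate 1 (3016 counts, 95% Wilson interval 644 to 692) and 175 CPM in replicate 2 (1049 counts, 165 to 186), a mean of 421.5 ± 348.0 CPM. Its SD was 82.6% of its mean, against 13.2% to 44.8% for the other members. It ranked 113 of all miRNA genes in the first library and 176 in the second.

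**Figure D2:**
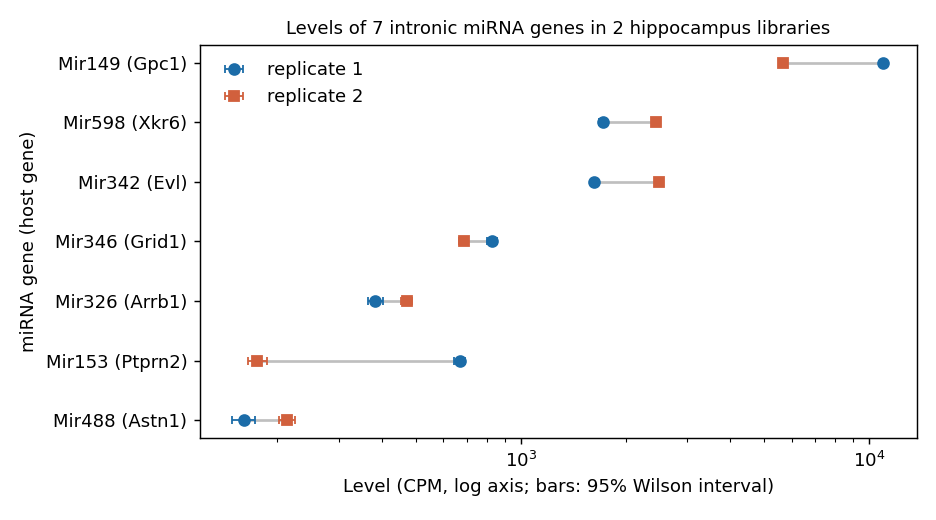
Level of each member in CPM on a log axis, in replicate 1 (circles) and replicate 2 (squares), with 95% Wilson intervals as bars and the host gene in brackets. Mir149 lies highest in both libraries, at 10944 and 5680 CPM, and Mir153 shows the widest gap, from 668 to 175 CPM.

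Ordered by mean level the genes ran Mir149, Mir598, Mir342, Mir346, Mir326, Mir153 and Mir488. Between 2 genes with 2 libraries each, taken as unpaired values, an exact two-sided permutation test cannot go below 0.333. The order was therefore read from the ranges and from the levels within each library. In 18 of the 21 pairs of members the ranges over both libraries did not overlap. Of the 6 neighbouring pairs, 3 overlapped, and each of these changed order between the libraries. Mir598 and Mir342 were close in both, with Mir598 1.06 times the level of Mir342 in replicate 1 and 0.984 times in replicate 2. Mir153 was above Mir326 in replicate 1 and below it in replicate 2, where Mir326 was 2.68 times as high. Mir153 was also 4.17 times the level of Mir488 in replicate 1 but 0.823 times in replicate 2, so it moved from the fifth place to the last.

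The libraries were then compared gene by gene. Fisher's exact test, two-sided, set each count against the remaining miRNA counts, with Benjamini-Hochberg adjustment over the 420 genes and a threshold of 0.05. It compares the reads of these libraries and not conditions. All 7 members passed, 4 higher and 3 lower in replicate 2. Over all 420 genes 56.9% passed, 27.1% as higher and 29.8% as lower in replicate 2. For other scalings an exact binomial test took the place of Fisher's test. With TMM factors all 7 members and 56.2% of the genes passed it, and with DESeq2 size factors all 7 and 56.7%. All 7 members also had 100 or more counts in each library. Among the 270 such genes 74.1% passed Fisher's exact test, with 34.4% higher and 39.6% lower. The members' count is thus read against a background in which most well-counted genes pass.

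Sizes were described next. The members' median difference in either direction was 1.42-fold, beside 1.23-fold over all 420 genes, and their median log2 ratio of replicate 2 to replicate 1 was 0.30, beside -0.07. Ratios are on the log2(CPM + 0.5) scale. Mir342 was 1.53-fold higher in replicate 2 (log2 ratio 0.61, 95% interval 0.57 to 0.65), Mir598 1.42-fold (0.51, 0.47 to 0.55), Mir488 1.33-fold (0.41, 0.28 to 0.55) and Mir326 1.23-fold (0.30, 0.21 to 0.39). In the other direction Mir346 was 1.21-fold higher in replicate 1 (-0.27, -0.33 to -0.21). Of these 5 genes, Mir346 and Mir326 lay close to the median size of all tested genes, since 222 and 210 of the 420 had a larger ratio in either direction. By Fisher's exact test their adjusted p ran from 4.3e-202 for Mir342 to 1.5e-09 for Mir488.

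Mir149 and Mir153 had the largest differences, both higher in replicate 1. Mir149 was 1.93-fold higher there (log2 ratio -0.95, 95% interval -0.97 to -0.93), and 11.2% of the 420 genes had a larger ratio. Mir153 was 3.80-fold higher there (-1.92, -2.03 to -1.83), and 6 genes, or 1.43%, had a larger one. It is the only member past 2-fold, which 41 of the 420 genes (9.76%) reached. The adjusted p of both was below the smallest number the calculation holds. Because of Mir149 the summed level of the 7 genes was 1.34-fold higher in replicate 1, whereas without it the other 6 summed to 5386 CPM in replicate 1 and 6484 CPM in replicate 2, 1.20-fold higher in replicate 2.

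**Figure D3:**
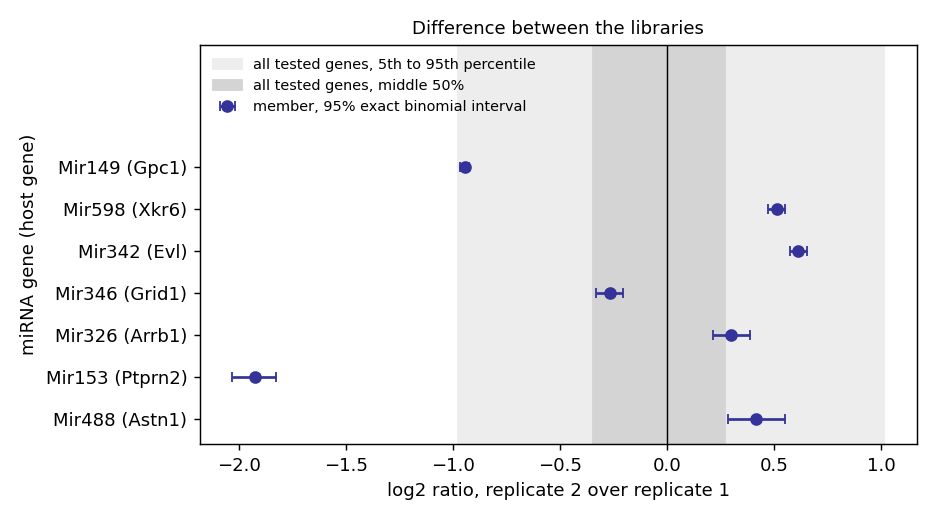
Log2 ratio of replicate 2 to replicate 1 for each member, with exact binomial 95% intervals, over bands that hold the middle 50% (-0.34 to 0.27) and the 5th to 95th percentile (-0.98 to 1.01) of all 420 tested genes. Mir153, at -1.92, is the 1 member outside the wider band.

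Counting error is a narrow yardstick, so the differences were also set against the typical spread between the libraries. The common dispersion of edgeR, fitted to both libraries as 1 group, gave a coefficient of variation of 31.1%. With that spread, edgeR's exact test called none of the 7 members. The spread was estimated from the same 2 libraries, so few calls are built in, and no conclusion about the members is drawn. Mir153 came closest (p = 0.00452, adjusted p = 0.265 by edgeR's exact test), and it was the 1 member with an unadjusted p under 0.05, as were 26 of all 420 genes. The adjusted p of the other 6 was 1 by the same test. Over all genes 0.952% passed, of which 0.476% were higher (Mir26a-2 and Mir3083) and 0.476% lower (Mir185 and Mir200c) in replicate 2. All but Mir200c were named after their values were seen.

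The fixed list for regions outside hippocampus moved in the same direction as Mir153, Mir149 and Mir346, and opposite to Mir342, Mir598, Mir488 and Mir326. Of the list's 13 genes 10 were tested and 9 were lower in replicate 2 by Fisher's exact test, beside 29.8% of all tested genes. The list's genes come from few families, so these 9 are not taken as independent. By edgeR's exact test Mir200c alone of the list passed. Mir10a, at a log2 ratio of -0.22, missed the threshold (adjusted p = 0.504 by Fisher's exact test). Mir196a-1 had no count in either library. Mir200c, the most abundant of the list in replicate 1, stood at 158 and 26.9 CPM, and Mir429 at 131 and 49.5 CPM. The list's part in the members' differences was not tested. The endocrine miRNA Mir375 stood at 245 and 268 CPM, slightly higher in replicate 2, and Mir7-2 at 320 and 199 CPM, higher in replicate 1. The list of neuronal miRNAs was 1.12-fold higher in replicate 2 in sum, but of its 7 tested genes 1 was higher (Mir132) and 3 were lower (Mir128-1, Mir138-1 and Mir212) there by Fisher's exact test. Without Mir132, a sum chosen after seeing the data, the list summed to 26824 CPM in replicate 1 and 24263 in replicate 2.

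**Figure D4:**
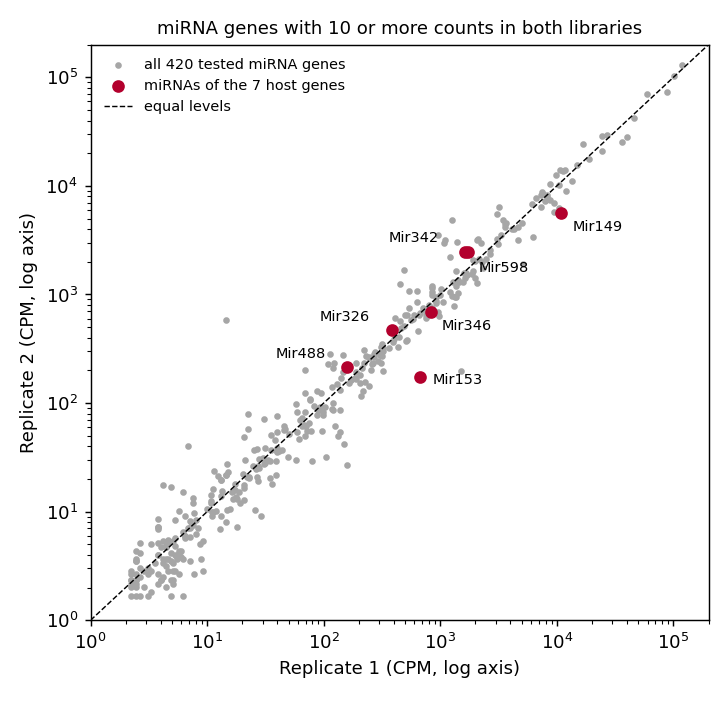
Level in replicate 1 against replicate 2, both in CPM on log axes, for the 420 tested miRNA genes (grey) and the 7 members (red), with a dashed line of equal levels. Mir153 and Mir149 lie furthest below the line among the members, and Mir342 and Mir598 lie together above it.

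For each member the tested gene closest to it in both libraries was found, by the distance on the log2(CPM + 0.5) scale over 2 libraries. Mir598 and Mir342 were each other's closest gene, at a distance of 0.08, although their hosts lie on different chromosomes. Mir346 was closest to Mir467d of Sfmbt2 (0.02) and Mir326 to Mir376c of the imprinted Dlk1-Dio3 region (0.02). Mir149 was closest to Mir23a (0.15), and Mir488 to Mir27a (0.20). Mir153 had no close counterpart, since the nearest gene, Mir7-2, was 1.08 away. Mir467d, Mir376c, Mir23a, Mir27a and Mir7-2 share 20 to 60 bases with another miRNA gene, so their own counts are uncertain. With 2 libraries, such a likeness rests on 1 level and 1 ratio per gene.

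Seeds were shared with few other miRNAs. The seed of miR-326-3p is also that of miR-330-5p, and the sequence of the latter is shown to compare with it.
miR-326-3p: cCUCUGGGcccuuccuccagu
miR-330-5p: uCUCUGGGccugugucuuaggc
Mir330, within Eml2, stood at 11885 and 9048 CPM (53691 and 54103 counts), 31.1 times the level of Mir326 in replicate 1 and 19.2 times in replicate 2. It was 1.31-fold higher in replicate 1, whereas Mir326 was 1.23-fold higher in replicate 2. How much of the Mir330 level comes from the 5p arm cannot be read from counts per gene. The seed of miR-149-3p occurs in Mir7016, with 10 and 14 counts, in Mir1943, with 7 and 14, and in the miR-6967 genes Gm27775 and Gm27740, with none. The seed of miR-346-3p occurs in Mir7001, with 0 and 1 counts. The remaining 9 arms share their seed with no other of the 1738 mature sequences at hand.

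Other miRNA genes within neuronal hosts gave a wider frame. A list of 19 further host genes, chosen for roles in neurons or their receptors and signalling, held 29 miRNA genes on the same strand, of which 20 were tested and 6 had no count in any library. The highest were Mir139 in the phosphodiesterase gene Pde2a, at 80354 ± 10390 CPM (SD, n = 2), Mir338 in the kinase gene Aatk at 4127 ± 201 CPM, Mir128-2 in Arpp21 at 2637 ± 83.2 CPM, Mir708 in Tenm4 at 2018 ± 31.4 CPM, Mir383 in Sgcz at 1393 ± 45.3 CPM and Mir204 in the channel gene Trpm3 at 997 ± 218.7 CPM. Mir128-2, Mir708 and Mir338 share 23 or more bases with another annotated miRNA gene or its complement, so these 3 levels are less certain. In the fixed marker lists Mir338 belongs to oligodendrocytes and Mir204 to choroid plexus, and which cells gave their levels was not tested. Mir149 ranked below Mir139 alone. By mean level Mir598 and Mir342 lay between Mir128-2 and Mir708, and the other 4 members lay below Mir204. In replicate 1 Mir598 and Mir342, at 1719 and 1628 CPM, lay below Mir708 at 1996 CPM. In replicate 2, at 2450 and 2488 CPM, they lay above Mir708 at 2040 CPM.

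Of the 20 tested genes of these hosts, 2 were higher and 7 lower in replicate 2 by Fisher's exact test, beside 27.1% and 29.8% of all genes, and 11 did not pass. By the exact binomial test with TMM factors the split became 5 and 5, beside 29.0% and 27.1% of all genes. By that test with DESeq2 size factors it became 5 and 4, beside 29.8% and 26.9%. Their median difference in either direction was 1.13-fold, beside the 1.42-fold of the 7 members. Among the highest, Mir139 was 1.20-fold and Mir338 1.07-fold higher in replicate 1, and Mir204 was 1.37-fold higher in replicate 2. Mir708, at a log2 ratio of 0.03, had an adjusted p of 0.179 by Fisher's exact test. The difference between the 2 sets of hosts was not tested, since the 7 genes and the list were chosen with earlier results of these data known.

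**Figure D5:**
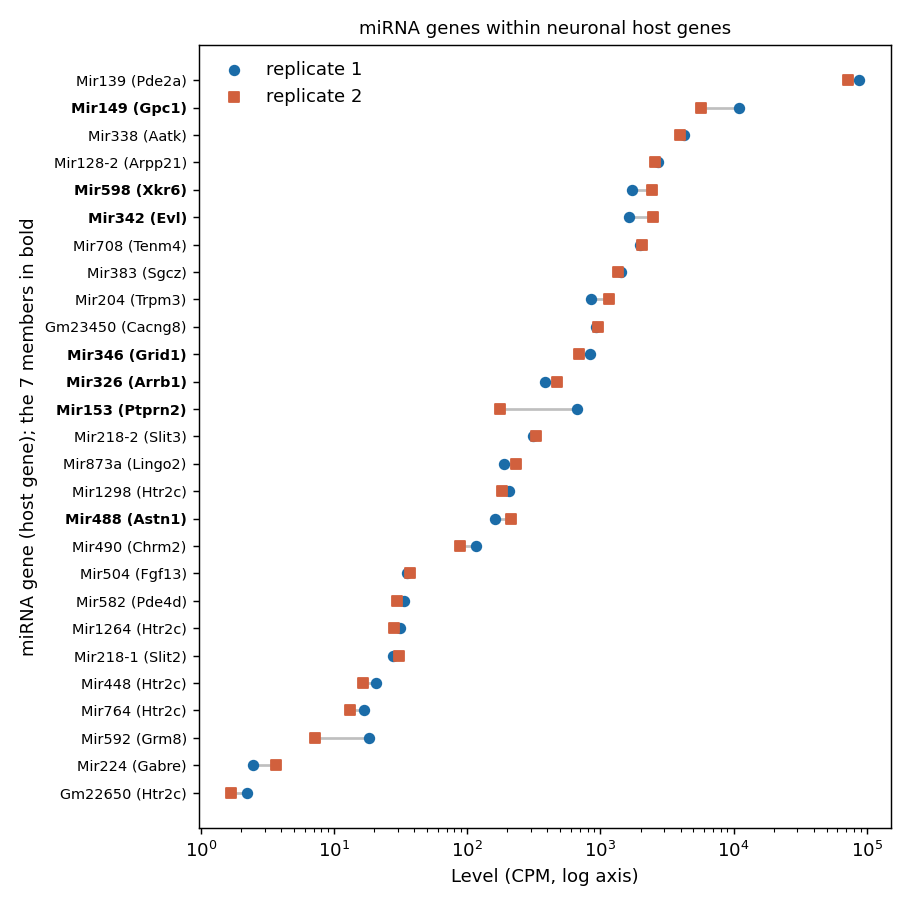
Level in CPM on a log axis of the tested miRNA genes within the 7 host genes (bold names) and the further neuronal host genes, in replicate 1 (circles) and replicate 2 (squares). Mir139 is highest, at a mean of 80354 CPM, followed by Mir149 at 8312 CPM, and Mir153 shows the widest gap of the genes plotted.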

How the data were processed

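The authors deposited, per library, a table of whole-number read counts per miRNA gene for mm10 and GENCODE M21, per the deposited notes. For the aligner and trimming, nothing is given in the sources used here. The 3 columns are not named and were read from the values as counts without regard to strand, sense and antisense. The sense column is used. The 4 leading lines of reads given to no gene stay out of totals; reads mapping to several places made up 45.9% (replicate 1) and 48.4% (replicate 2) of all reads. The mapping of castaneus alleles to mm10 is likewise not stated.

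Identifiers were matched to GENCODE M21. The host intron is that of the lowest-numbered protein-coding transcript that spans the hairpin. Fisher's exact tests (scipy 1.17.1) covered genes with 10 or more counts in each library. An exact binomial test replaced them with TMM or DESeq2 scaling. Fisher's test was checked on simulated data with counting error alone, which cannot show its error rate with spread between libraries. TMM factors, common dispersion and exact test came from edgeR 4.0.16 and size factors from DESeq2 1.42.0. With 1 group, edgeR's quasi-likelihood test has no contrast. The genes named are the 7 members, detected genes sharing a seed with them, the 6 most abundant of the further hosts, the closest gene to each member and the marker lists; others are named as chosen afterwards. Members and lists were chosen with earlier results of these data known. Alternatives were the strand column, scalings, minimum counts, pseudocounts, thinning, denominators, the edgeR test and leaving out a replicate.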

Additional observations from a re-analysis of the deposited data

How the results depend on the processing

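All 7 members kept their direction and passed the threshold with the column without regard to strand, TMM or DESeq2 scaling, a minimum of 1, 5 or 100 counts, no filter, the deeper library thinned and the most abundant gene left out. The log2 ratio of Mir153 ran from -1.92 to -1.88 over these and the pseudocounts, that of Mir149 from -0.95 to -0.90. The exception was edgeR's exact test with the common dispersion, which adds to counting error a spread estimated from the same 2 libraries. With it, 4 of the 239 genes, 0 of the 7 members and 0 of the 9 genes of the further hosts passed. With all reads as denominator the members' share was 0.540%, by construction, and the median of other intronic miRNA genes 11.5 CPM. That median was 27.6 CPM without regard to strand and 34.8 CPM without the most abundant gene (the cause of the former was not tested); these alternatives were chosen after seeing the data. Leaving out a replicate leaves 1 library and no ratio: the members' share was 1.22% or 1.63%, 3 or 5 of the 7 members kept their place in the order, and the other intronic median ran from 29.6 to 31.1 CPM. No paired analysis of groups was possible because the series has 1 group. Depth did not limit the levels, as every member had at least 723 counts per library.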

Other observations

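The neurotransmitter receptor genes Htr2c, Chrm2, Grm8, Gabre and Gabra3 among the further hosts carried miRNAs at lower levels than Mir346 of Grid1. By contrast, Gm23450 of the further host Cacng8 stood above Mir346 in both libraries, at 926 and 953 CPM in replicates 1 and 2. All these genes were chosen after their values were seen. Mir1298, within the serotonin receptor gene Htr2c, stood at 206 and 181 CPM in replicates 1 and 2, while its neighbours in the same host, Mir1264, Mir448 and Mir764, stood at 31.2 and 28.3, 20.6 and 16.4, and 16.6 and 13.0 CPM. Mir1912 of Htr2c had 4 and 7 counts. The 5 tested genes of Htr2c, these 4 and Gm22650 with 10 counts in each library, had a lower level in replicate 2, and Mir1298 alone passed Fisher's exact test (log2 ratio -0.18, adjusted p = 0.00907). Mir490, within the muscarinic receptor gene Chrm2, stood at 117 and 88.0 CPM. Mir592, within the metabotropic glutamate receptor gene Grm8, stood at 18.2 and 7.19 CPM (82 and 43 counts), 2.42-fold higher in replicate 1, and was the gene of this list with the largest ratio. Mir224 of the GABA receptor gene Gabre had 11 and 22 counts, and Mir105 and Mir767 of Gabra3 had none in either library.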
